A study of Mus musculus with 2 samples.

Results

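The Fgf pathway genes described here are the protein-coding mouse genes with symbols of the form Fgf, Fgfr, Spry or Spred followed by a number, together with Fgfrl1. The rule gave 34 of 21887 protein-coding genes in the RefSeq table for GRCm38.p6, which mm10 is based on: 22 Fgf genes, 5 receptor genes, 4 Sprouty genes and 3 Spred genes. Open chromatin was measured by ATAC-seq, in which the Tn5 transposase cuts and tags accessible DNA, in cells that carried GFP and were collected by FACS. They came from C57/Bl6 mouse embryos with the Hb9::GFP transgene, taken on embryonic day 10.5. Hb9, now Mnx1, is a homeobox gene of motor neurons whose promoter drives the GFP, and the labels call the cells spinal motor neurons. All samples belong to this 1 group of 2 replicates, which the authors deposited as 1 pooled, filtered peak list, so no value below has a replicate error and no test between samples or conditions exists. Fgf pathway genes received 352 of the 138387 summit entries, by having the summit inside the gene, or within 100 kb of it with no other protein-coding gene end nearer.

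An entry is a summit called by the peak caller, and several can share 1 interval: the 352 entries lay in 239 intervals. The fold of an entry is the read pileup at its summit over the caller's local background, as the authors deposited it, and the reads behind it were worked back from that fold and the −log10 p. Below, the strongest entry is the one with the highest fold, which need not have the most reads. Entries of Fgf pathway genes had a median of 27 reads (5th to 95th percentile 13 to 103), against 24 reads over all entries on the chromosomes, and a median of 3.12-fold against 3.14-fold. The q-value was 0.05 or more in 55 of the 352 entries (15.6%), against 17.7% of all entries. The weakest had 11 reads, so a gene without an entry is not shown to be closed. Its signal may be below the caller's limit, or a summit near it may be nearer to another gene, as at Fgf17. Of the marker genes of the labelled cell type, 6 of 8 had an entry within 1 kb of a gene end, with Isl2 and Prph as the exceptions, and the same held for 4 of 4 neural progenitor, 2 of 4 endothelial and 1 of 4 blood genes, against 63.7% of all placed protein-coding genes. The makeup of the sorted cells was not tested.

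Fibroblast growth factors are signalling proteins, most of which are secreted and bind receptor tyrosine kinases on the cell surface together with heparan sulfate. The receptors act through the Ras and MAP kinase cascade, and Sprouty and Spred proteins, whose genes are often targets of the pathway, dampen that cascade. In the embryo, Fgf signals from the caudal axis keep neural progenitors undifferentiated and help to set spinal Hox expression, and in mouse, axons of medial motor neurons that carry Fgfr1 grow towards Fgf from the dermomyotome.

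Accessible sites were found at most of these genes and were spread unevenly among them. Of the 33 genes placed on a chromosome, 30 had at least 1 entry, against 83.4% of all placed protein-coding genes, and 28 had an assigned entry within 1 kb of a gene end, against 63.7%. An entry outside a gene and nearer to an end of another gene was not assigned to it, here and over all genes. Entries per gene ran from 0 to 37 with a median of 9, against a median of 3 over all genes. In 15 of the 33 genes there were 10 or more entries, which 16.5% of all genes had. The 5 richest genes, Fgfr2 with 37, Fgf14 with 35, Spry2 with 22, Spred2 with 20 and Fgfr1, equal with Fgf10 at 19, held 133 entries (37.8%). Fgf6, Fgf17 and Fgf21 had none.

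**Figure D1:**
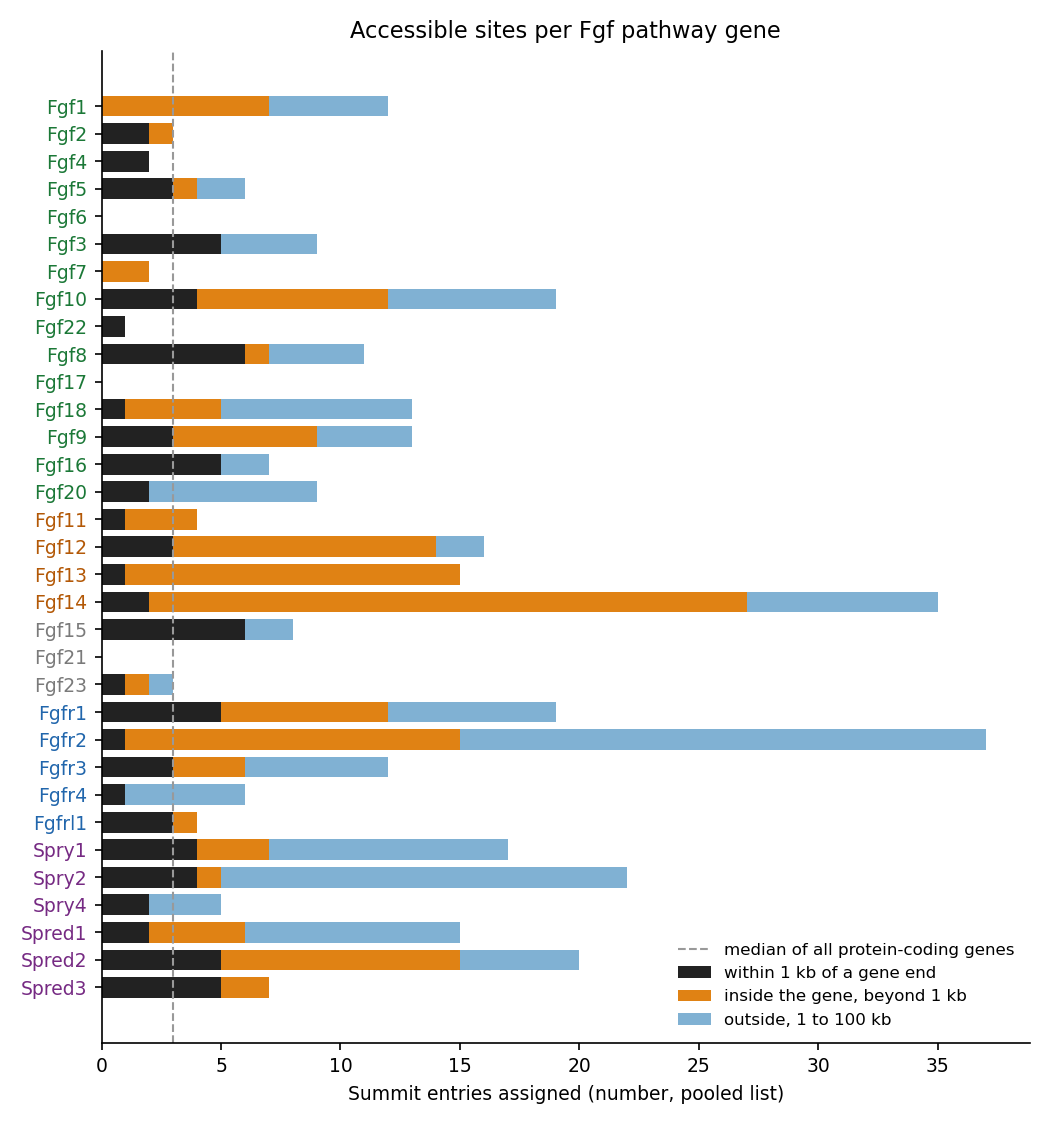
Summit entries assigned to each of 33 Fgf pathway genes (horizontal axis, number), split into entries within 1 kb of a gene end, inside the gene beyond 1 kb and outside at 1 to 100 kb; the dashed line is the median of all protein-coding genes. Fgfr2 with 37 entries and Fgf14 with 35 have the longest bars, and Fgf6, Fgf17 and Fgf21 have none.

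Counts were also set against the space around each gene. The territory of a gene is its own span plus the sequence nearer to its ends than to any other gene end, up to 100 kb, and its median was 80.04 kb for Fgf pathway genes against 49.5 kb for all genes. Per 100 kb of territory, 24 of the 33 genes lay above the median of all genes (6.05 entries), and the median of the 33 was 7.70. Pooled over the 33 genes the value was 6.82, against 6.21 over all genes. Pooled over the genes of a role, the receptors had 16.1 entries per 100 kb, the hormone-like ligands 14.3, the Sprouty genes 12.6 and the Spred genes 9.81, against 6.21 over all genes. Secreted ligands had 7.21 and the intracellular Fgf genes 2.996. Summits can share an interval, and with each interval counted once the values were 10.5 for the receptors, 7.99 for the Sprouty genes, 6.51 for the hormone-like ligands and 6.07 for the Spred genes, against 4.61 over all genes. The secreted ligands then had 5.12 and the intracellular Fgf genes 2.27. All 33 genes together then had 4.63, close to the 4.61 over all genes. The hormone-like value rests on 11 entries in 5 intervals, so its place above the Sprouty genes was lost.

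**Figure D2:**
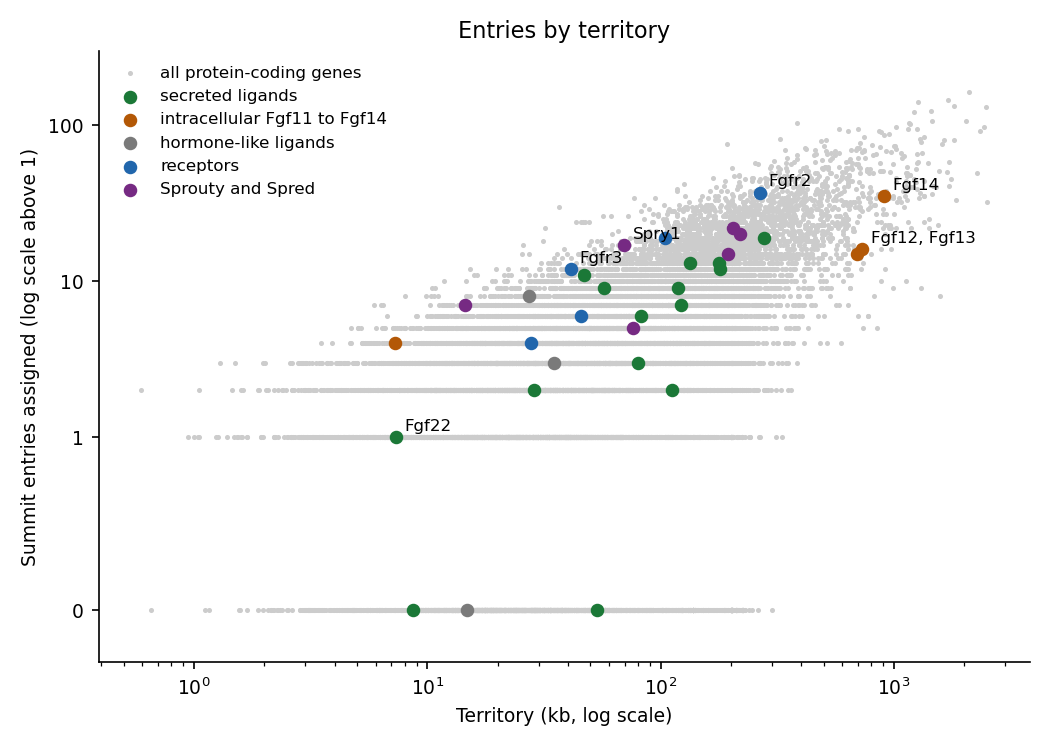
Entries assigned to a gene (vertical axis, number, log scale above 1) against its territory (horizontal axis, kb, log scale) for the 33 placed genes, coloured by role, over all protein-coding genes in grey. Fgfr2, Fgfr3 and Spry1 lie in the upper part of the grey cloud for their territory, and Fgf12 and Fgf13 in its lower part.

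Entries of Fgf pathway genes had a larger share outside the genes and a smaller share inside them than those of all genes. Of the 352 entries, 83 (23.6%) were within 1 kb of a gene end, 129 (36.6%) deeper inside the gene and 140 (39.8%) outside at 1 to 100 kb. Over all genes these shares were 21.4%, 46.4% and 32.3%. Of the outside entries, 25 lay within 10 kb of the gene, 78 at 10 to 50 kb and 37 beyond 50 kb. For genes whose strand is known, 54 lay before the first base and 56 past the last base. At the edge of the reach, an entry of Fgfr2 at 97.8 kb had 1.89-fold and 11 reads, and the nearest left out, at 100.8 kb from Spred2, had 4.21-fold and 28 reads. A further 80 entries had a Fgf pathway gene as the nearest gene at more than 100 kb and are not counted, 25 of them at Spred2.

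Gene ends of this family were open, but mostly below the middle of the genome by fold. The strongest gene-end entry had a median of 6.01-fold over the 28 genes with one, against 7.99-fold over 13872 genes, and only Fgf14 and Fgfr4 of the 28 lay above 7.99-fold. The median was 63.5 reads against 93 reads, with 9 of the 28 genes above 93 reads, and the median local background was 11.98 reads against 10.6. Entries nearer to an end of another gene are not counted here, such as 1 of 9.53-fold and 123 reads near Fgf11 that went to Chrnb1. Distal entries, which lie 1 to 100 kb from the nearest gene end and go to that gene, were of like strength in both, with medians of 2.92-fold and 24 reads at Fgf pathway genes and 2.93-fold and 22 reads over all genes. In 16 of the 25 genes with both kinds, the strongest distal entry exceeded the strongest gene-end entry in fold, which held for 31.5% of all such genes. By reads the order can be the other way, as at Spry2. The number of distal entries per gene, with a median of 4 against 2 over all genes, was not allowed for.

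**Figure D3:**
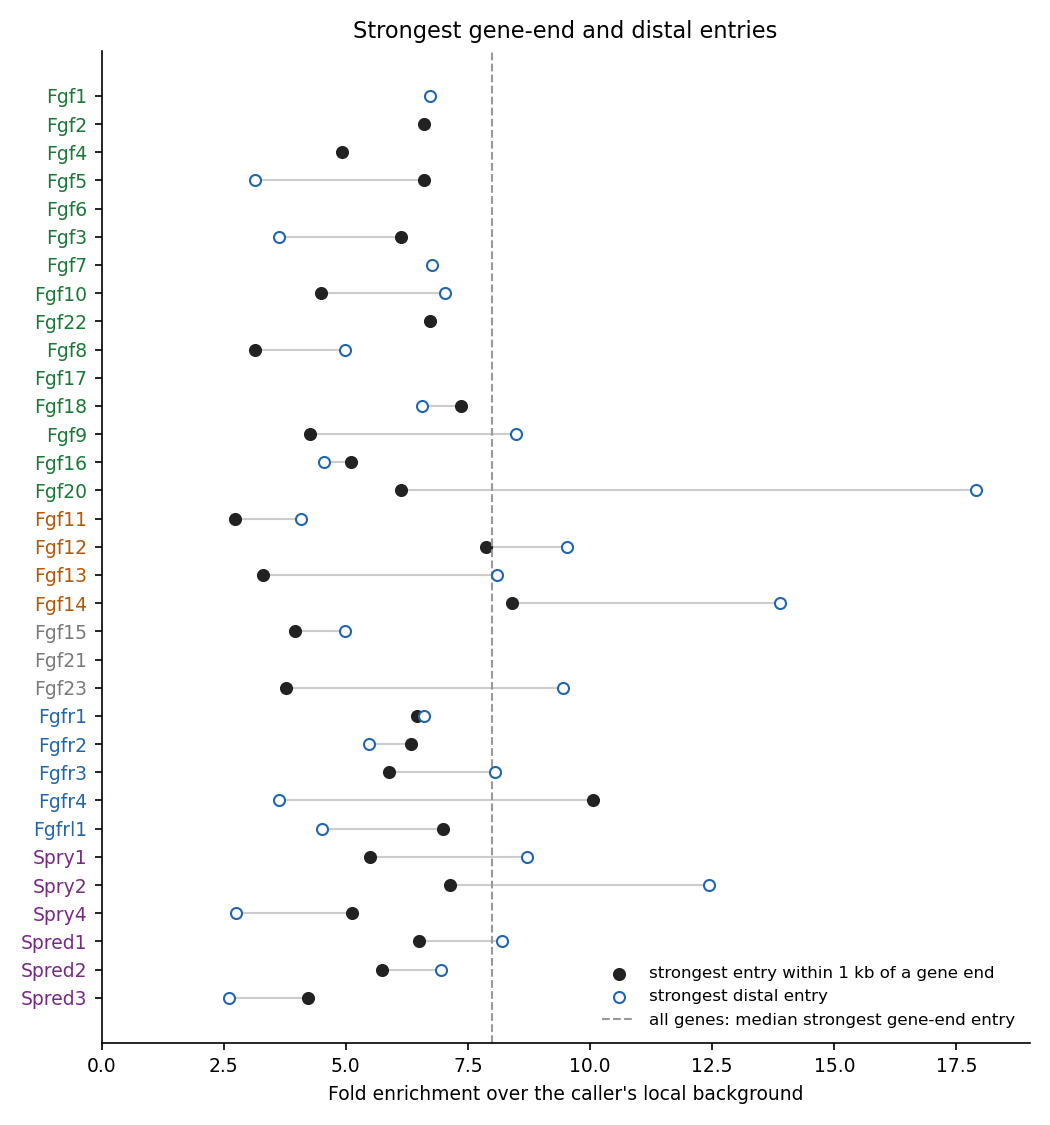
Fold enrichment (horizontal axis) of the strongest entry within 1 kb of a gene end (filled circles) and of the strongest distal entry (open circles) of each gene; the dashed line is the median strongest gene-end entry of all genes, at 7.99-fold. Only the filled circles of Fgf14 and Fgfr4 lie to its right, and the open circle of Fgf20 at 17.9-fold is the farthest.

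The receptors are the cell-surface kinases Fgfr1 to Fgfr4 and Fgfrl1, which lacks the kinase domain. All 5 had a gene-end entry, against 63.7% of all genes, and their strongest ones ran from 5.89-fold to 10.1-fold. Only that of Fgfr4 lay above the all-gene median of 7.99-fold. Fgfr2 (chromosome 7, 130162451 to 130266808) had the most entries of the Fgf pathway genes, and it ranked 290th among all placed genes. Fgf14, with 35 entries, had more intervals, 30 against 27, and in each of the 2 genes 27 entries had a q-value under 0.05. The 37 entries of Fgfr2 lay in 27 intervals: 1 at a gene end, 14 deeper inside and 22 outside, with 36 classed as distal. The gene-end entry had 6.34-fold and 128 reads, and the highest distal entries were 5.48-fold inside the gene, 14.4 kb from its start (chromosome 7, 130251924 to 130252562), and 5.47-fold outside, 88.3 kb past its far end (130073968 to 130074689). All distal entries of Fgfr2 were thus below its gene-end entry in fold.

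Fgfr1, which medial motor neurons are known to carry in mouse, had 19 entries in 12 intervals (chromosome 8, 25518759 to 25575718). Its lower-coordinate end held 3 summits of 6.46, 5.98 and 5.67-fold with 76, 71 and 67 reads in 1 interval, and its higher-coordinate end had 2 entries, of 5.32-fold and 36 reads and of 2.003-fold and 13 reads. Both ends were thus open. Away from the ends, an entry of 6.60-fold and 41 reads lay outside at 35.7 kb (25482758 to 25483960), and 1 of 6.11-fold and 60 reads inside the gene at 26.3 kb (25544755 to 25545329). Fgfr3, a receptor of neural progenitors and later of glia, had 12 entries in a territory of 41.4 kb. The strongest, at 8.05-fold and 96 reads, lay 16.3 kb before the gene (chromosome 5, 33704994 to 33706098), above the 5.89-fold and 104 reads at its start.

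Fgfr4 and Fgfrl1 had 5 and 1 distal entries, the highest of 4.50-fold at Fgfrl1. Fgfr4 had the highest gene-end fold of the family, 10.1-fold with 91 reads, with its summit 8 bp past the RefSeq start, and distal entries of at most 3.64-fold. At Fgfrl1 the start had 6.995-fold and 165 reads, 70 bp past the start, over a background of 22.7 reads, and the single distal entry had 4.50-fold and 107 reads. The 250 bases before the starts of these receptors, from the RefSeq promoter table (GRCm38.p6), are printed because the entries sit differently on them: on the start at Fgfr4 and Fgfrl1, and 487 bp past it at Fgfr2. Capitals mark matches on either strand to the GC box GGGCGG, the CCAAT box CCAAT, the TATA box TATAAA, the ETS motif CCGGAAGT and the AP-1 motif TGANTCA, which may overlap.
Fgfr4, chr13:55152568-55152817, plus strand: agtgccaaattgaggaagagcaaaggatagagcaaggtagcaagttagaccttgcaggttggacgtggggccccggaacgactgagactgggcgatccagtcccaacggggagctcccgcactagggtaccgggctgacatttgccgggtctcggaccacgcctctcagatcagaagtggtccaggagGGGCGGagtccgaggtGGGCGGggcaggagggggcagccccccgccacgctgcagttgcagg
Fgfrl1, chr5:108693979-108694228, plus strand: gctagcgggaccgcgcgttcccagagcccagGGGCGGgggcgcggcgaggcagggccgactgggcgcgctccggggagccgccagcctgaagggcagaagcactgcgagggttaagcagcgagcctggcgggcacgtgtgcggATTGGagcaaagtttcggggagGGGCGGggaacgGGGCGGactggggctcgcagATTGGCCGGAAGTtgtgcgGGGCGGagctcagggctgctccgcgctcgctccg
Fgfr2, chr7:130266809-130267058, minus strand: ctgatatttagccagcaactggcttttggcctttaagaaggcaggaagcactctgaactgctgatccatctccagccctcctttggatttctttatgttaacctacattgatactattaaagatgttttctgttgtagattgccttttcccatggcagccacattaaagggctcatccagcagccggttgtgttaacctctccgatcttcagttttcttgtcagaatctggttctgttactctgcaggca
The ratio of observed to expected CpG, over 250 bases before and 50 after the start, was 0.65 at Fgfr4, 0.96 at Fgfrl1 and 0.28 at Fgfr2. The printed stretch holds 2 GC boxes at Fgfr4 and 4 at Fgfrl1, which also has 2 CCAAT boxes and the ETS motif, the binding motif of the Etv factors that Fgf signals often induce. No match to the 5 motifs is in the printed Fgfr2 stretch.

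The Sprouty and Spred genes encode inhibitors of the cascade below the receptors. All 6 placed genes had a gene-end entry, against 63.7% of all genes. They had a median of 16 entries and 13 distal entries per gene, against 3 and 2 over all genes. Spry2 (chromosome 14, 105891947 to 105896819) lies in a gene-poor stretch, and 17 of its 22 entries were outside the gene. Its end held the entry with the most reads of the family, 242 reads over a background of 33.0 reads (7.14-fold), 572 bp before the start. The highest fold of Spry2 lay 40.4 kb past the gene, 12.4-fold and 142 reads (105851025 to 105852058). A second such site at 76.0 kb had 9.54-fold and 98 reads (105815811 to 105816409), and another, 24.2 kb before the gene, 6.96-fold and 99 reads (105920348 to 105921335). Sites of Spry2 thus stood on both sides of the gene.

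Spry1 (chromosome 3, 37639947 to 37644599) had 17 entries in 10 intervals, or 24.3 per 100 kb of territory. Its start lay in a broad interval of 1548 bp with summits of 5.49, 4.98, 4.74 and 4.52-fold within 1 kb of the gene end, and the highest summit there, 7.53-fold and 129 reads, lay just beyond that window, 1017 bp into the gene. The strongest site by fold, 8.71-fold and 79 reads, was 22.4 kb past the gene (37666354 to 37667445), with fewer reads than the summit at 1017 bp. Of the 13 distal entries of Spry1, 10 lay outside the gene. Spry4, on chromosome 18, had 5 entries, with 5.12-fold and 84 reads at its end and no distal entry above 2.76-fold. That end entry lay 175 bp from the end of Spry4 and 445 bp from an end of Arhgap26. Another summit of the same interval is nearer to Arhgap26 and was left to it by the rule. Spry1 and Spry2 therefore had strong distal sites, and Spry4 had weak ones.

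**Figure D4:**
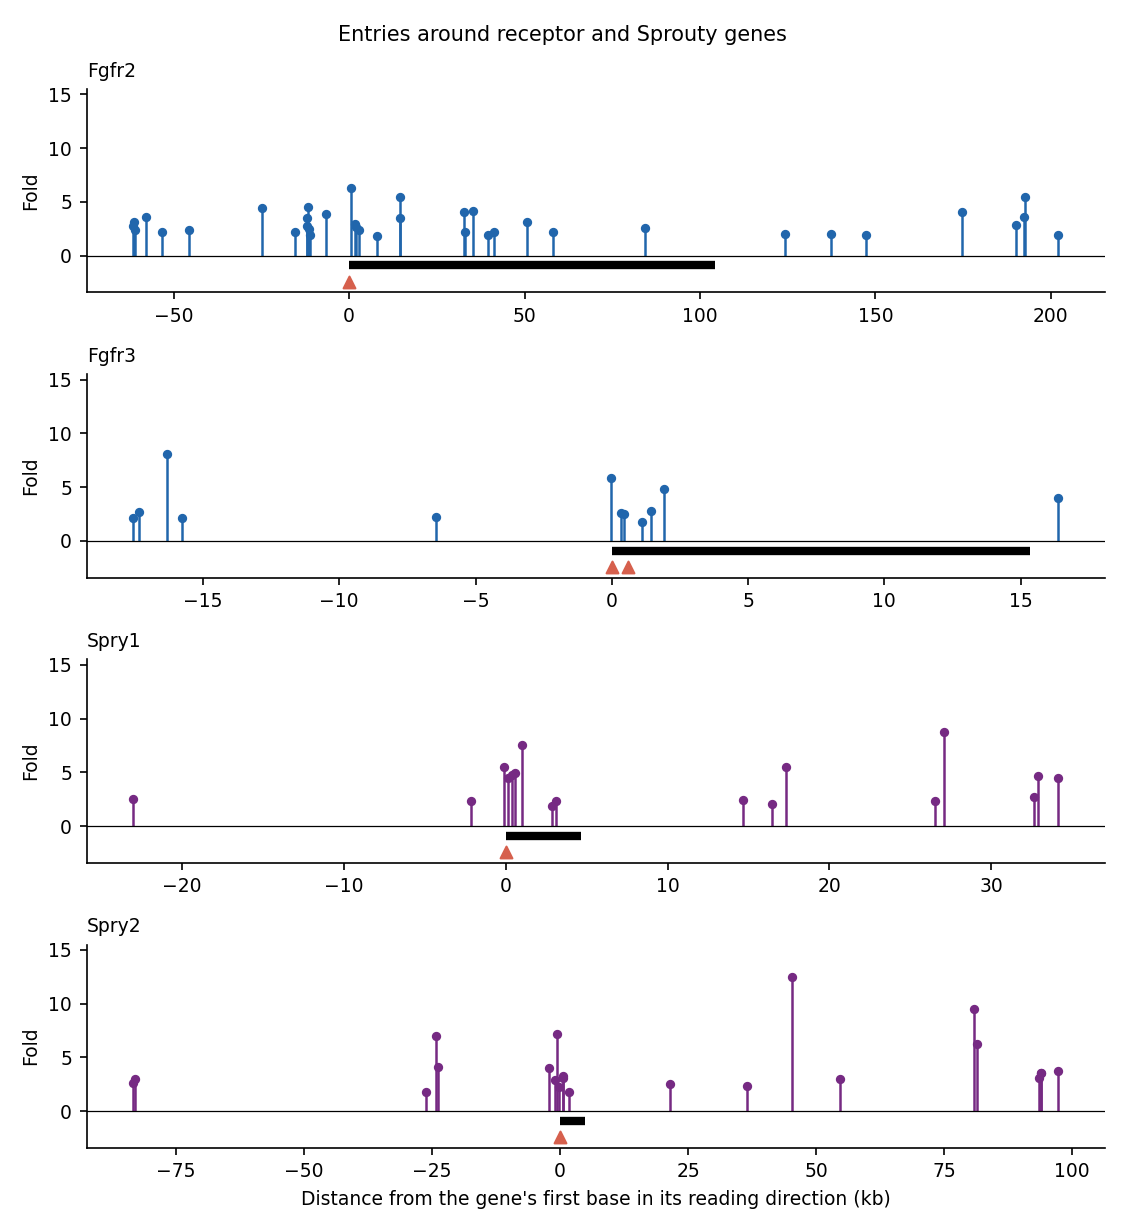
Fold enrichment (vertical axis) of every entry assigned to Fgfr2, Fgfr3, Spry1 and Spry2 against distance from the first base of the gene in its reading direction (horizontal axis, kb, a separate scale for each gene); the black bar is the gene and red triangles are RefSeq starts. The entries of Fgfr2 are many and at most 6.34-fold, while those of Spry2 reach 12.4-fold in the region past the gene.

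The Spred genes, which like Sprouty block Ras signalling, differed in size and in sites. Spred2 (chromosome 11, 19924442 to 20024026) had 20 entries, with 5.74-fold and 128 reads at its end in an interval of 2421 bp and 6.94-fold and 45 reads inside the gene, 12.7 kb from the far end (20011220 to 20011840). Spred1 (chromosome 2, 117121071 to 117182279) had 15, with 6.49-fold and 137 reads at its start and distal sites of 8.21-fold and 60 reads at 80.6 kb before the gene (117040217 to 117040686) and 8.13-fold and 73 reads at 28.7 kb past it. Spred3 had 7 entries, the strongest of 4.22-fold and 61 reads. It overlaps the gene Ggn, and 5 of its entries lie inside Ggn, so these cannot be given to Spred3 alone.

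The intracellular members Fgf11, Fgf12, Fgf13 and Fgf14 are not secreted. They bind voltage-gated sodium channels in neurons, and Fgf12, Fgf13 and Fgf14 each have alternative first exons that give proteins with different amino-terminal ends. Fgf12, Fgf13 and Fgf14 are also the longest genes of the family, at 595, 523 and 703 kb. They had 16, 15 and 35 entries, of which 11, 14 and 25 lay inside the gene more than 1 kb from its ends, and in all 29 entries lay inside a gene more than 100 kb from the nearest gene end. These deep entries, which are not classed as distal, lay in part at the alternative starts. Of the 35 entries of Fgf14, 3 lay outside it and inside the gene Itgbl1, so these cannot be given to Fgf14 alone.

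At Fgf12 (chromosome 16, 28157783 to 28753243, minus strand), RefSeq lists 4 starts, and all had an entry within 1 kb. The first start, at the end of the gene, had 7.88-fold and 55 reads. The second start and the third lie close together, 188.3 and 188.7 kb into the gene, and share 1 entry of 11.7-fold and 94 reads, the highest fold of this gene (28563968 to 28565192). The fourth start, 307.2 kb into the gene, had 8.38-fold and 99 reads in an interval with 2 more summits. The strongest entry of Fgf12 beyond 1 kb of any start was 9.53-fold and 69 reads, outside the gene and 74.7 kb past its far end (28082537 to 28083580).

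At Fgf13 (chromosome X, 59062139 to 59585572, minus strand), the 4 starts differed. The fourth, 451.1 kb into the gene, had 8.09-fold and 53 reads with the summit 78 bp past the start. The second, 18.2 kb into the gene, had 6.40-fold and 50 reads with the summit 123 bp before the start. The first, at the gene end, had only a weak entry of 3.30-fold and 20 reads at 929 bp before it, and the third, 419.5 kb into the gene, had none within 1 kb. The 2 strongest of the 4 starts were thus both internal.

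The 250 bases before each of these starts of Fgf13, and before 3 of those of Fgf12, are printed to show the base composition of starts with and without a strong entry, with the same motifs in capitals and coordinates of GRCm38.p6. The third start of Fgf12 shares its entry with the second and is left out.
Fgf13, the first start, chrX:59585573-59585822, minus strand: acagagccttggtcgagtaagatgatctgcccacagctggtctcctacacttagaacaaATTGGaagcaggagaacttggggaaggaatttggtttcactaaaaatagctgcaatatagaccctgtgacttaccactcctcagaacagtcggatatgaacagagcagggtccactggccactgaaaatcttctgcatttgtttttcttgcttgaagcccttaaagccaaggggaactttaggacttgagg
Fgf13, the second start, chrX:59567349-59567598, minus strand: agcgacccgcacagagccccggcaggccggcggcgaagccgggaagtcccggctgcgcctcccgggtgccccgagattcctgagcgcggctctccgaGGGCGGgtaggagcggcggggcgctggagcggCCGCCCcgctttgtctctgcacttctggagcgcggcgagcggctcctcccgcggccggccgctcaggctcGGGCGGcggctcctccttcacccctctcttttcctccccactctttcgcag
Fgf13, the third start, chrX:59166089-59166338, minus strand: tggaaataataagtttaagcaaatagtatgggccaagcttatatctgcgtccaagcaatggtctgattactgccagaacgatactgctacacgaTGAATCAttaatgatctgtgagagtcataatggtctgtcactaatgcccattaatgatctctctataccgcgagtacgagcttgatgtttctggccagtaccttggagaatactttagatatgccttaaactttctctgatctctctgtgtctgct
Fgf13, the fourth start, chrX:59134437-59134686, minus strand: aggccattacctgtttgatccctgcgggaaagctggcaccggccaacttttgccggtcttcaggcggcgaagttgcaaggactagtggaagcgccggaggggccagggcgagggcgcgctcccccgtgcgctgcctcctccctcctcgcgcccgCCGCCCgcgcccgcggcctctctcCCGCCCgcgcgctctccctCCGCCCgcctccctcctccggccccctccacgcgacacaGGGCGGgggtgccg
Fgf12, the first start, chr16:28753244-28753493, minus strand: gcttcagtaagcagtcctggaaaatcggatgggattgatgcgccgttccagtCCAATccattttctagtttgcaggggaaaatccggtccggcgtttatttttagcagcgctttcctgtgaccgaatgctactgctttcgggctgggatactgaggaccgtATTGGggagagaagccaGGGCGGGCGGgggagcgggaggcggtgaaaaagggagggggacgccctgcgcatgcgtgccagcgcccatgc
Fgf12, the second start, chr16:28564952-28565201, minus strand: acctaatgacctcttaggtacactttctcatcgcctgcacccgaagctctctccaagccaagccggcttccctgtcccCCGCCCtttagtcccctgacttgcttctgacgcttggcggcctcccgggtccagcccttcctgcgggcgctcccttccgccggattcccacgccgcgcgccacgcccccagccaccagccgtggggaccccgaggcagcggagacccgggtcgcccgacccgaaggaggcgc
Fgf12, the fourth start, chr16:28446076-28446325, minus strand: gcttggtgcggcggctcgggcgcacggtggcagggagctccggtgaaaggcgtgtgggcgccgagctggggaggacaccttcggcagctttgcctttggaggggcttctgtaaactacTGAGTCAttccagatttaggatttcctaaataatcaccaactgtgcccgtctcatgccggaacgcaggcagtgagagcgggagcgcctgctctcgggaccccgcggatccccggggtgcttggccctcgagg
The second start of Fgf13 and the fourth, with 3 and 4 GC boxes in the printed stretch, had observed to expected CpG ratios of 0.97 and 0.95. The first and the third had ratios of 0.19 and 0.49 and no GC box. For Fgf12 the ratios were 0.78, 0.95 and 0.72 at the 3 printed starts, with 2, 1 and 0 GC boxes in the printed stretches. The fourth start of Fgf12 thus had no GC box in its printed stretch. The summit of its 8.38-fold entry, at 28446793, lies outside that stretch. The summit nearest to the start, at 28446163 and inside the stretch, had 4.88-fold and 57 reads. The stretch of this start holds an AP-1 match, as does that of the third start of Fgf13, which had no entry.

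Fgf14 (chromosome 14, 123974441 to 124677686, minus strand) had the entry with the highest −log10 q of the family, 121.8. It had 13.9-fold and 159 reads and lay inside the gene, 7.75 kb from its first base (124669546 to 124670050). The first base itself had 8.40-fold and 133 reads, 124 bp into the gene. The only start of Fgf14 in the promoter table, 485.1 kb into the gene, had 7.33-fold and 78 reads. Further sites inside the gene had 9.33-fold and 84 reads at 165.3 kb (124512052 to 124513254) and 8.02-fold and 74 reads at 640.8 kb (124036213 to 124037353). Fgf11, a short gene on chromosome 11, had 4 entries, the strongest of 4.07-fold and 69 reads, 2.29 kb from the gene end. A stronger entry of 9.53-fold and 123 reads lies 619 bp from an end of Fgf11, but 517 bp from the end of Chrnb1, a subunit gene of the muscle acetylcholine receptor, and was left to Chrnb1 by the rule.

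**Figure D5:**
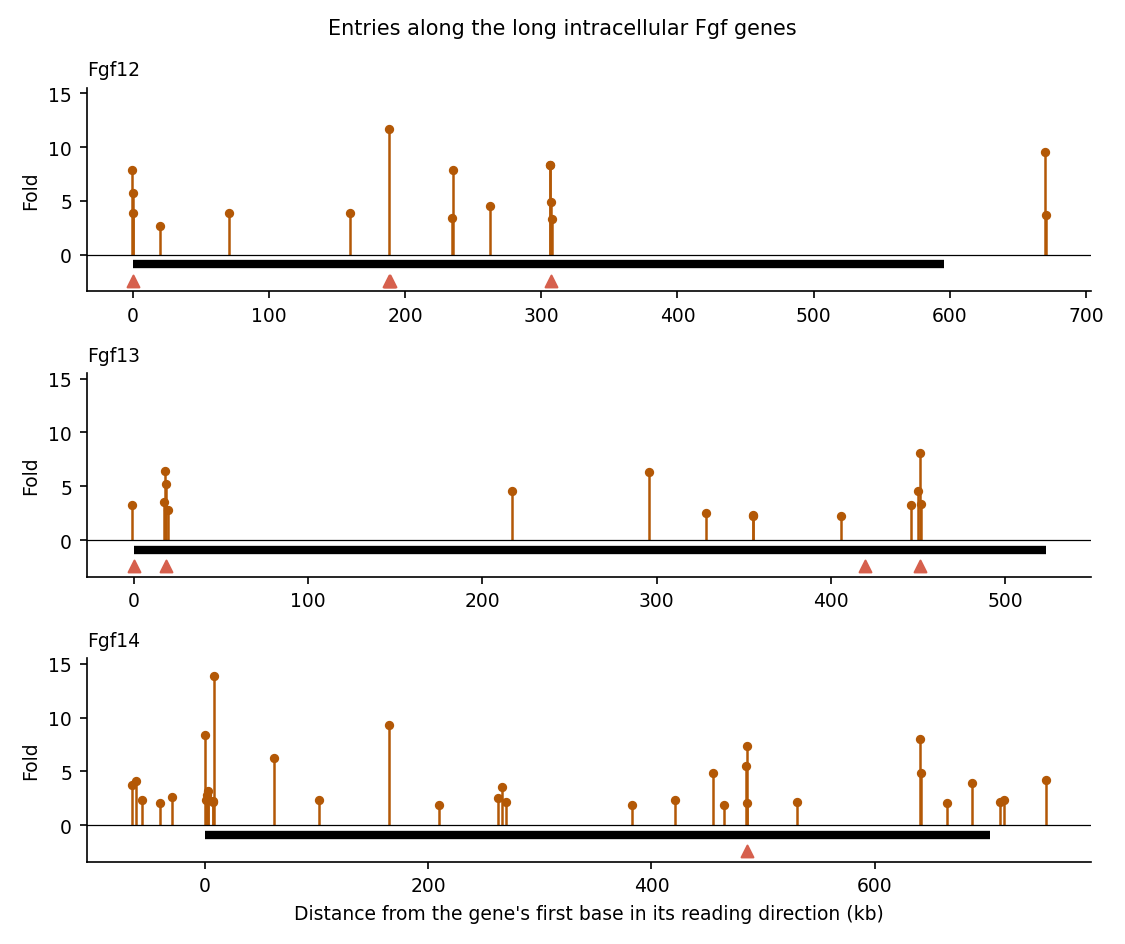
Fold enrichment (vertical axis) of every entry assigned to Fgf12, Fgf13 and Fgf14 against distance from the first base of the gene in its reading direction (horizontal axis, kb, a separate scale for each gene); the black bar is the gene and red triangles are RefSeq starts. Tall entries stand over every triangle except the first and the third of Fgf13.

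Secreted ligands of the local kind had fewer entries per gene than the receptors or inhibitors. Of these 15 genes, 13 had an entry, against 83.4% of all genes, and 11 a gene-end entry, against 63.7%. They had a median of 7 entries and 3 distal entries per gene, and gene-end folds from 3.14 to 7.36. In the Fgf8 subfamily, Fgf8 itself, a signal of the caudal axis and limb ridge, had 11 entries with none above 4.98-fold. Its ends had 3.14-fold and 31 reads and 2.93-fold and 37 reads, among the lowest of the family, and its highest entry lay outside at 18.6 kb (chromosome 19, 45717576 to 45718129, 32 reads). Fgf18, by contrast, had the highest gene-end fold of the secreted ligands, 7.36-fold and 123 reads, 379 bp before its start, and a site of 6.55-fold and 70 reads inside the gene (chromosome 11, 33122474 to 33123424). Fgf17 had none by the rule. An entry of 3.13-fold and 31 reads lay 239 bp from its end, but nearer to Dmtn.

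The Fgf9 subfamily, Fgf9, Fgf16 and Fgf20, had a gene-end entry at all 3 genes, at 4.27, 5.10 and 6.13-fold, against 63.7% of all genes with one. Fgf9 had 13 entries, with its strongest of 8.48-fold and 53 reads outside the gene, 16.4 kb before its first base (chromosome 14, 58054022 to 58054444). Fgf20 carried the highest fold of all 352 entries, 17.9-fold and 113 reads, at 76.3 kb from the gene (chromosome 8, 40202770 to 40202943). That interval is only 174 bp wide and its background is at the lowest level in the list, 5.37 reads. The next entry of Fgf20 had 6.13-fold.

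In the Fgf7 subfamily, whose members signal mainly to epithelia, and of which Fgf7 and Fgf22 organise synapses in mouse brain, Fgf10 had 19 entries, Fgf3 9, Fgf7 2 and Fgf22 1. Fgf10, the limb bud mesenchyme signal, had 4.49-fold and 64 reads at its start and a site of 7.02-fold and 61 reads 21.3 kb into the gene (chromosome 13, 118735676 to 118736688). The single entry of Fgf22 lay 19 bp past its RefSeq start with 6.73-fold and 63 reads. Fgf7 had no gene-end entry. It lies wholly inside the gene Fam227b, so its 2 entries, the stronger of 6.75-fold and 42 reads, cannot be given to Fgf7 alone.

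Apart from Fgf1, genes of the Fgf1 and Fgf4 subfamilies had 0 to 6 entries each, against a median of 3 over all genes. Fgf1, on chromosome 18, had 12 entries, none of them at a gene end. It lies wholly inside Arhgap26, and all 12 entries lie inside that gene or Gm5820 too, the strongest at 6.72-fold and 42 reads. Fgf2 had 3 entries, of which the start held 6.60-fold and 41 reads. Fgf5 had 6.59-fold and 69 reads at its start, Fgf4 had 4.91-fold and 35 reads, and Fgf6 had no entry. Fgf2, Fgf4 and Fgf5 were thus open at the gene end, with at most 3 distal entries each.

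The hormone-like ligands Fgf15, Fgf21 and Fgf23 are made mainly in gut, liver and bone and act on other organs with Klotho co-receptors, and Fgf15 is also made in the embryonic neural tube. Fgf15 had 8 entries in 2 intervals, 6 of them at a gene end in a broad interval of 2204 bp, with a highest gene-end value of 3.96-fold and 48 reads. Fgf23 had 3.77-fold and 23 reads at its start and 9.44-fold and 74 reads inside the gene, 2.22 kb from the far end (chromosome 6, 127079717 to 127080591). Fgf21 had no entry. Both gene-end values were below the 6.01-fold median of the family.

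Several of these genes lie side by side. Fgf3, Fgf4 and Fgf15 follow each other on chromosome 7 with gaps of 18.04 and 31.3 kb and no protein-coding gene between. Fgf6 and Fgf23 are 48.2 kb apart on chromosome 6 with none between. Fgf2 and Spry1 on chromosome 3 are 229.8 kb apart, and Spry4 and Fgf1 on chromosome 18 are 237.3 kb apart, each pair with 1 gene between.

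Starts of the family in the RefSeq promoter table were mostly open and rich in CpG. The table holds 32 starts for 25 of the genes, of which 28 had an entry within 1 kb, against 65.7% of 21263 starts of protein-coding genes. Starts that lie close together share entries. The 4 without were those of Fgf6, Fgf7 and Fgf21 and the third of Fgf13. Starts with an entry had a median observed to expected CpG of 0.78, and those without 0.47. Over all genes these medians were 0.75 and 0.18. The GC box was found on either strand in 22 of the 32 starts (68.8%) against 46.2% of all starts, the CCAAT box in 31.2% against 38.2%, the TATA box in 9.38% against 12.6%, the AP-1 motif in 6.25% against 6.99% and the ETS motif in 1 start, that of Fgfrl1 (3.12%), against 5.15%, all over 300 bases. A match is a description of these letters and not a shown binding site.

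Other genes of the pathway had accessible ends as well. Of 40 co-receptor, heparan sulfate, cascade and target genes, 39 had a gene-end entry, with Fgfbp1 as the exception, against 63.7% of all genes. Genes of the Ras and MAP kinase cascade, which are used in most cells, had a median of 6 entries and 9.75-fold at their ends over 18 genes. The 8 heparan sulfate enzymes had a median of 17.5 entries, all with 10 or more, against 16.5% of all genes. They were led by Ext1 with 39, Hs2st1 with 38 and Sulf1 with 36, the richest of the 40. The 6 target genes had a median of 12 and the 8 co-receptors and binding proteins 9.5. Among genes named after their values were seen, the feedback phosphatase gene Dusp6 had 24 entries, the pathway inhibitor Il17rd, held in the co-receptor list, 19, and the transcription factor genes Etv4 and Etv5 9 each. Gene-end folds of the cascade genes lay above the 6.01-fold of the Fgf pathway genes in the median, and their distal counts, with a median of 3, below the median of 4 of the Fgf pathway genes.

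The gene Spry3 is listed on chromosome X at 101352 to 110912, in a part of the table whose positions restart, which marks sequence not placed on the chromosome. It is left out of all counts above.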

How the data were processed

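ATAC-seq was run on 2 replicates of 1 group, and the authors deposited 1 pooled narrowPeak list of both. Per the submitters' processing notes, the tools were Trim Galore, cutadapt, BWA, SAMtools and MACS2 2.2.7.1, and the build was mm10. The sources used here do not give their settings, the treatment of duplicates, any Tn5 shift or the filter. The deposited score equalled 10 times −log10 p without its decimals in nearly all entries. The deposited fold is a ratio of pileup to local background, and the deposited −log10 p and −log10 q values come from the peak caller.

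Reads at a summit were recovered from the fold and −log10 p, and 99.96% came out within 0.01 of a whole number. Sequencing depth per replicate is unknown. Gene spans, strands and promoter sequences came from RefSeq tables of GRCm38.p6, matched by symbol, and no genome sequence was used. A gene-end entry is an entry assigned to the gene that lies within 1 kb of either end, since the strand was known for 25 genes only. An entry outside the gene and nearer to an end of another gene is not counted. All genes matching the name rule are reported, by role. The members and lists were chosen with earlier results of these data known. Alternatives changed the entries kept, the window, the reach and the gene ends used. Scripts used Python 3.11.15, pandas 2.3.3 and scipy 1.17.1, and were tested on simulated data.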

Additional observations from a re-analysis of the deposited data

Results flagged for a closer look

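Spry3 was left out of the counts because its listed position is on sequence not placed on a chromosome. The peak list holds an unplaced X sequence with 1 interval at 111161 to 111622, which has summits of 3.61-fold with 22 reads and of 2.83-fold with 17 reads. If the listed position of Spry3 refers to that sequence, these lie 516 and 395 bp from its end. Other entries on that sequence include 1 of 10.996-fold with 69 reads at 38907 to 39576, nearest to Vamp7, and 1 of 2.83-fold with 17 reads at 159571 to 160006, nearest to Tmlhe. The signal near Spry3 stood outside the main measurement, and no control samples exist for it.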

How the results depend on the processing

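The values were 28 genes with a gene-end entry, 352 entries, a median of 4 distal entries and a median strongest gene-end entry of 6.01-fold. Of 29 alternative values, 21 stayed within 1.5 times the count or, for the fold, equal to 3 digits, which still covers sizeable moves: 239 entries and a distal median of 3 with each interval counted once, 315 entries within 50 kb, and 22 of 25 genes by the start end only. Keeping only the 50% of entries highest in −log10 q gave 188 entries, a median of 2 distal entries and 6.12-fold. The gene-end median was also 6.12-fold with 1 entry per interval, 5.89-fold without backgrounds of 30 reads or more, 5.89-fold with a window of 500 bp, 6.23-fold at the start end only, and 5.89-fold with Spry3 placed, an alternative chosen after seeing the data. Densities per 100 kb by role were also taken with intervals in place of entries, chosen after seeing the data. They were lower by over 1.5 times for the receptors, hormone-like ligands, Sprouty and Spred genes. The hormone-like ligands moved from above the Sprouty genes (14.3 against 12.6) to below them (6.51 against 7.99). Fgf14 had more intervals than Fgfr2 (30 against 27) but fewer entries. Over all genes, the gene-end median was 8.37-fold for the upper 50% of entries and 8.12-fold for 1 entry per interval. The family stayed below both, and its distal medians stayed above the all-gene median of 1. No paired analysis was possible because the replicates were deposited as 1 pooled list, and for the same reason no replicate could be left out. Depth limits weak sites: the weakest entry had 11 reads.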
